A study of Mus with 6 samples.

Results

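Prf1 and Siglech, genes known for killer lymphocytes and plasmacytoid dendritic cells, each had 1 brightly read probe in leukaemic stem cells sorted free of lineage markers, while the remaining probes of both genes lay near background. These are 2 of the 19057 genes with a named probe, and every probe that the platform annotation assigns to either symbol was taken, 5 of 45281, with 2 for Prf1 and 3 for Siglech. Both genes were selected on the measured intensities themselves, because a probe of each read above 1000 on all 6 arrays, so that brightness is given as a description and is not tested.

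The study hybridised RNA from bone marrow of mice with chronic myeloid leukaemia (CML) to one-colour Illumina mouse bead arrays, 3 wild-type (WT) and 3 Klf4-deficient. In both groups the disease was driven by BCR-ABL p210, the strain given is C57BL/6, and bone marrow was sorted 14 days after transplantation. Sorted cells were positive for green fluorescent protein, lacked lineage markers and carried Sca-1 and c-Kit (LSK), the phenotype of stem and early progenitor cells. The labels name neither the Klf4 allele, nor the means of its deletion, nor the age of the mice, nor the antibodies of the lineage panel, and whether each sample is a mouse of its own is not said. Every p-value below thus rests on sample-to-sample spread that could be purely technical.

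Perforin, the product of Prf1, is stored in the granules of natural killer (NK) cells and cytotoxic T cells. On release it inserts into the membrane of a target cell and forms pores through which granzymes enter and trigger death. Siglec-H, the product of Siglech, is a receptor of the Siglec family, which belongs to the immunoglobulin superfamily. It marks mouse plasmacytoid dendritic cells, the main producers of type I interferon, and signals through the adaptor DAP12, encoded by Tyrobp. Neither gene is among the markers that define the LSK phenotype.

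All values below are deposited intensities, whose negative readings and near-equal distributions show that a background had been subtracted and the arrays brought to one scale before deposit, and a reading of 32 or less was treated as background. Between 7082 and 7214 probes per array lay above 32, and 424 lay above 1000 on each array. WT replicate 3 stood apart, with Pearson r of 0.292 to 0.306 to the other arrays across 13773 tested features, against 0.679 to 0.741 among the other 5. Klf4 itself gave no check of the labels, with readings on its brightest probe of -5.1, 51.9 and -2.8 in the WT arrays and 3.6, -1.9 and -2.2 in the Klf4-deficient ones.

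The bright Prf1 probe, ILMN_2960700, read 6855.6, 2567.7 and 2591.2 in WT replicates 1, 2 and 3, and 1706.1, 3773.8 and 4834.5 in Klf4-deficient replicates 1, 2 and 3. WT replicate 1 was the highest array and Klf4-deficient replicate 1 the lowest, 4.02-fold apart, so that the groups overlapped. Of the other 4 arrays, the 2 WT ones lay below the 2 Klf4-deficient ones. The group means were 4005 ± 2469 in WT and 3438 ± 1591 in Klf4-deficient arrays (SD, n = 3 each). As these are bulk samples, fewer cells of a type and less RNA per cell cannot be told apart.

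The bright Siglech probe, ILMN_2928599, read 4102.6, 1515.8 and 1331.9 in the WT arrays and 1167.1, 2452.3 and 2870.3 in the Klf4-deficient ones. The same arrays were highest and lowest as for Prf1, 3.52-fold apart, and the groups again overlapped. The means were 2317 ± 1549 in WT and 2163 ± 887.6 in Klf4-deficient arrays (SD, n = 3 each).

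The other probes of the same genes did not show this signal. The second Prf1 probe, ILMN_1228333, read -2.5, 4.6 and 1.8 in the WT arrays and -6.8, -17.8 and -10.3 in the Klf4-deficient ones, so no array reached 32. Of the other two Siglech probes, ILMN_1239190 read -4.5, 12.7 and 12.2 in the WT arrays and 15.7, -1.5 and -1.7 in the Klf4-deficient ones. ILMN_2656415 read -4.4, 16.6 and 279.6 in the WT arrays and 5.1, 4.1 and 4.6 in the Klf4-deficient ones, and thus exceeded 32 on 1 array, WT replicate 3. The bright Siglech probe was the second lowest on that same array. The annotation assigns both Prf1 probes to 1 RefSeq transcript and all 3 Siglech probes to 1 transcript. The RefSeq gene list (assembly GRCm38.p6) holds 1 curated and 1 model transcript for Prf1, and 3 curated and 12 model transcripts for Siglech. Probe sequences were not used here, so which part of a transcript each probe reads was not tested.

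**Figure D1:**
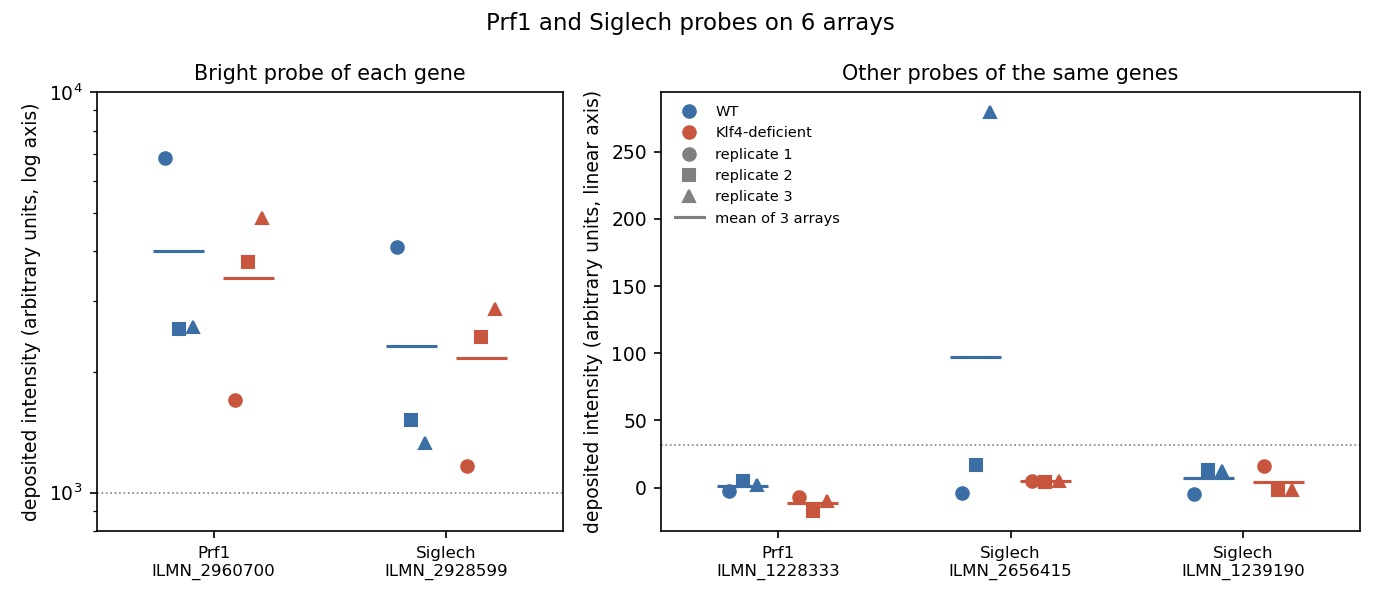
Deposited intensity of every Prf1 and Siglech probe, with the bright probe of each gene on a log axis (left) and the other 3 probes on a linear axis (right). Symbols are single arrays, bars are means of 3 arrays, and the dotted lines mark 1000 and 32; the bright probes span 1706.1 to 6855.6 and 1167.1 to 4102.6, while the others lie below 32 on all but 1 array.

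The threshold of 1000 on all 6 arrays was met by 128 probes, or 0.283% of all probes, of which 56 carried 1 gene symbol and belonged to 52 genes. The named genes just inside it were Atpif1, Mitf and Gm10052, with lowest readings of 1048.3, 1040.5 and 1002.7. Those just outside were Rps14, Eif3i and Arnt, with 987.6, 980.4 and 960.1. With lowest readings of 1706.1 for Prf1 and 1167.1 for Siglech, both members lay inside. Without WT replicate 3, the threshold was met by 215 probes. Among the 52 genes, 36 had more than 1 probe, and in 16 of these every other probe exceeded 32 on at most 1 array. Prf1 and Siglech were both among those 16, as were Mitf, Rhbdl2, Stim1 and Ifngr2, so disagreement between probes of a gene was shared with other bright genes. The log2 values of the bright probes had an SD over the 6 arrays of 0.72 for Prf1 and 0.71 for Siglech. Over the 128 probes the median SD was 0.54, with quartiles of 0.39 and 0.71.

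Neither gene passed the test between Klf4-deficient and WT cells, which differ in Klf4, a zinc finger transcription factor. The Prf1 difference was -0.18 ± 0.59 (log2, Klf4-deficient minus WT, with its SE from 3 arrays a side, and a limma adjusted p = 0.88), with a 95% interval from -1.68 to 1.31. For Siglech it was -0.004 ± 0.59, with an interval from -1.50 to 1.49 and an adjusted p of 1.00. An exact two-sided permutation test of the log2 means gave p = 0.90 for Prf1 and p = 1.00 for Siglech, where 3 against 3 arrays cannot go below 0.10. These intervals include changes of over 2-fold in either direction, so a difference of that size was not detectable with 3 arrays per group. Over the 13773 features, limma called 0, or 0%, at an adjusted p under 0.05, and 298 reached an unadjusted p under 0.05. The arrays of the 2 groups did not overlap for 3.41% of features, and both members overlapped.

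The sign of both differences rested on single arrays. Without WT replicate 1, the highest array, Prf1 was at 0.29 ± 0.54 and Siglech at 0.51 ± 0.49 (log2, SE, limma adjusted p = 0.78 and 0.72). Without Klf4-deficient replicate 1, the lowest array, they were at 0.26 ± 0.57 and 0.39 ± 0.61 (adjusted p = 0.85 and 0.81). Leaving out WT replicate 3 gave -0.42 ± 0.69 for Prf1 and -0.31 ± 0.65 for Siglech (adjusted p = 0.86 and 0.89). Leaving out any of the remaining arrays also kept both below 0, with Prf1 between -0.49 and -0.32 and Siglech between -0.26 and -0.15.

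**Figure D2:**
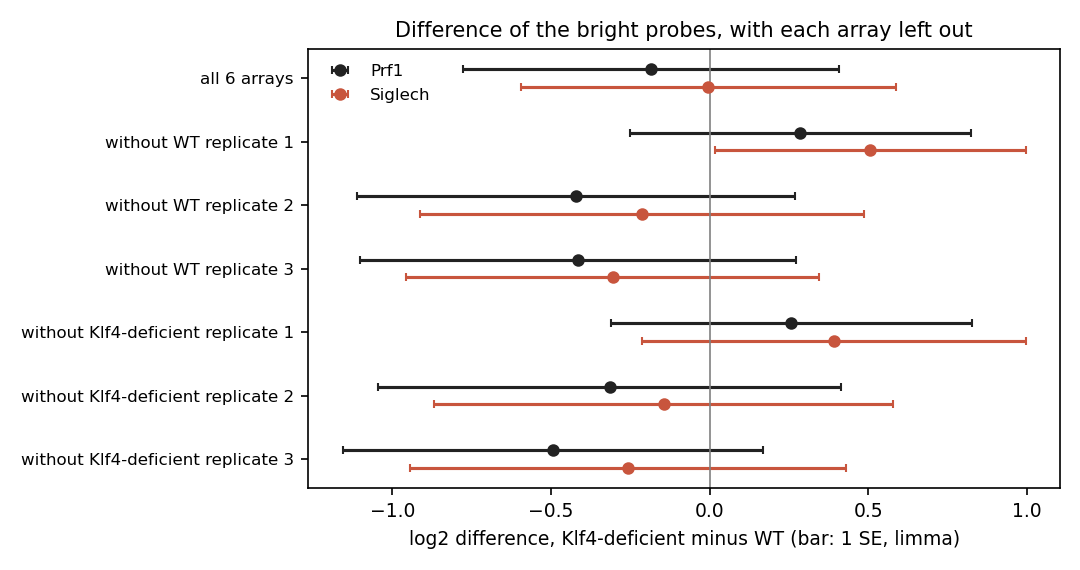
Log2 difference of the bright Prf1 and Siglech probes, Klf4-deficient minus WT, with all 6 arrays and with each array left out; points are limma estimates and bars 1 SE. Both genes move above 0 without WT replicate 1 or Klf4-deficient replicate 1 and lie below 0 otherwise.

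The 2 bright probes had nearly the same profile over the arrays. Expressed as log2 distance from its own mean, Prf1 was at 1.03, -0.39 and -0.37 in the WT arrays and -0.98, 0.17 and 0.53 in the Klf4-deficient ones. Siglech was at 1.02, -0.42 and -0.60 in the WT arrays and -0.79, 0.28 and 0.51 in the Klf4-deficient ones. The gap between the profiles was at most 0.23, in WT replicate 3, and the root mean square of the gaps was 0.129. Among the 1084 other features above 32 on all 6 arrays, 735 of them named, the median root mean square distance to Prf1 was 1.07. Siglech was the second nearest feature to Prf1, and Prf1 the nearest to Siglech. With each array left out in turn, the distance lay between 0.085 (without WT replicate 3) and 0.141, and each gene stayed among the 5 features nearest to the other, at places 5 and 4 without WT replicate 1 and at 1 or 2 otherwise. The arrays are the same for every gene here, so the likeness is a description over 6 arrays and carries no test.

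The named genes whose profiles were most like those of Prf1 and Siglech were the same for both. They were Icosl, the ligand of the T cell co-stimulator ICOS, Rhbdl2, a rhomboid protease, Zxda, a zinc finger gene, and Fnbp4, a formin binding protein. Icosl was 0.122 from Prf1 and 0.183 from Siglech, Rhbdl2 0.142 and 0.167, Zxda 0.198 and 0.169, and Fnbp4 0.248 and 0.197. None of these 4 genes was on a list of NK, T or dendritic cell genes used here.

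Rhbdl2 read 10246.7, 4772.6 and 4772.6 in the WT arrays and 3492.9, 6630 and 8015.4 in the Klf4-deficient ones. Icosl read 1945.3, 708.5 and 898.4 in the WT arrays and 561.8, 1252.4 and 1570.2 in the Klf4-deficient ones. Fnbp4 had the same shape near background, from 36.7 in Klf4-deficient replicate 1 to 102.3 in WT replicate 1. In each of these genes, and in Zxda (2223.3 to 5652.6), WT replicate 1 was the highest array and Klf4-deficient replicate 1 the lowest, as for both members. Icosl, Rhbdl2 and Fnbp4 each had a second probe, and those second probes were also near background. That of Rhbdl2 read at most 0.7 and that of Fnbp4 at most 1.4. The second Icosl probe exceeded 32 on WT replicate 3 alone (80.5), as the Siglech probe ILMN_2656415 did.

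**Figure D3:**
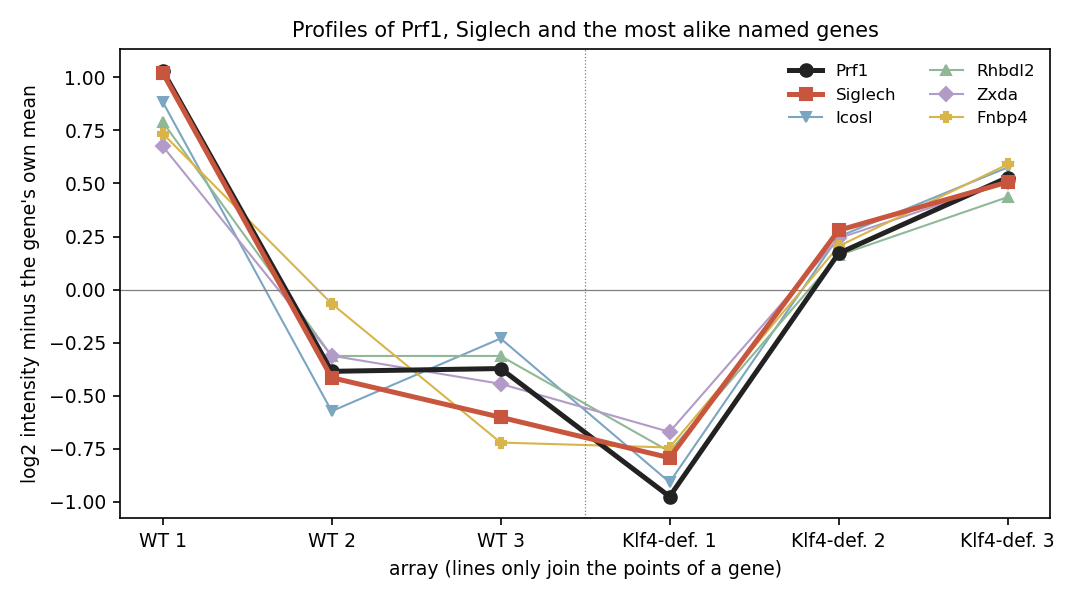
Log2 intensity of Prf1, Siglech and the 4 most alike named genes on each array, with the mean of each gene set to 0. The 6 profiles share their highest array, WT replicate 1, and their lowest, Klf4-deficient replicate 1.

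Partners of perforin in the killer cell granule were examined next, each by its brightest probe. Of 22 genes listed for the granule and its release, 21 had a probe. Leaving out Prf1, 9 of the 20 (45%) lay at or below 32 on all 6 arrays, 10 exceeded 32 on 1 to 5 arrays, and 1 (5%) lay above 32 on all. Over all 19057 genes with a probe, 46.3% lay at or below 32 on all arrays and 3.86% above it on all. Of those 10 granule genes, Rab27a and Lamp1 exceeded 32 on 5 arrays, up to 337.9 and 182.2. Unc13d did so on 4 (up to 430.6), Ctsw, Stx11 and Stxbp2 on 3 each, and the other 4 on 1 each. Gzmb, granzyme B, read -3.4, 38.5 and 0.9 in the WT arrays and 11.3, 31.9 and 1.8 in the Klf4-deficient ones. The granzymes Gzmd, Gzme, Gzmf, Gzmg, Gzmk and Gzmm did not exceed 32 on any array, and Gzmc did on 1, at 35.8 in WT replicate 2. Fasl, the death receptor ligand of killer cells, and Serpinb9, which protects such cells from their own granzyme B, stayed below 0 on all arrays.

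The granule gene above 32 on all arrays was Srgn, serglycin, the proteoglycan that packs granule proteins in many blood cells including myeloid ones. It read 495, 893.1 and 811.3 in the WT arrays and 627.5, 679 and 1074.8 in the Klf4-deficient ones, and its difference was 0.12 ± 0.36 (log2, SE, adjusted p = 0.88). Stxbp2, which acts in granule fusion, and Ctsc, the protease that activates granzymes, had the smallest p-values of the list. They differed by 1.83 ± 1.09 and 1.05 ± 0.93 (both adjusted p = 0.72), and Ctsc exceeded 32 on 1 array, at 282.7 in Klf4-deficient replicate 2. Of 12 tested members, Prf1 included, 5 had a higher mean with Klf4 deficient and 7 a lower one, the median difference was -0.07 (log2), and 0 were called. Over all tested features 6196 were higher and 7577 lower, with the same median. The summed intensity of the 20 genes was lowest on WT replicate 1 (1044.5), the array on which Prf1 was highest, and lay between 1301.9 and 1915.5 on the others. That order rested on Srgn: without it the sum of the other 19 genes was 549.5 on WT replicate 1 and lowest on WT replicate 3, at 490.6.

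Markers of the cells that carry perforin came next. Of 19 T and NK cell genes with a probe, 9 (47.4%, against 46.3% of all genes) did not exceed 32 on any array, 9 exceeded it on 1 to 5 arrays, and 1, Cd247, exceeded it on all 6. The NK receptors Klrb1c and Ncr1 read at most 13.5 and 5.2, and Il2rb and Klrc1 were also below 32 throughout. Cd3e, a chain of the T cell receptor complex, exceeded 32 on WT replicate 3 alone, at 56.3. Cd247, the zeta chain, read 162.6, 41.5 and 265.4 in the WT arrays and 52, 49.3 and 60.3 in the Klf4-deficient ones, and its other two probes stayed below 32.

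Cd8a, the CD8 alpha chain, read 72.1, 55.5 and -5.7 in the WT arrays and 56.6, 107.3 and 141.8 in the Klf4-deficient ones, with a difference of 0.92 ± 0.49 (log2, SE, adjusted p = 0.72). Its second probe was below 0 on all arrays. Cd8b1, the CD8 beta chain, read 49.2, 66.2 and 4.4 in the WT arrays and 33.9, 123.5 and 105.5 in the Klf4-deficient ones, above 32 on the same 5 arrays as Cd8a. Thy1, a surface protein of T cells and some progenitors, read 24.4, 26 and -7 in the WT arrays and 113, 187.2 and 146 in the Klf4-deficient ones, without overlap. Its 3 WT readings lay below 32 and were set to 32, which left them no spread in log2 and understates the difference. That difference of 2.19 ± 0.25 (log2, SE) missed the threshold too (adjusted p = 0.71), and the second Thy1 probe exceeded 32 on 1 array. The summed intensity of the 19 genes ranged from 244.7 to 1019.5 in WT and from 355.7 to 621.5 in Klf4-deficient arrays. It was highest on WT replicate 3, where Prf1 read 2591.2. Without that array, 3 of the 19 genes exceeded 32 on all the others, namely Cd247, Cd8a and Cd8b1. Of 10 tested members 4 had a higher mean with Klf4 deficient and 6 a lower one, with a median difference of -0.15 (log2) and 0 called. Whether cells of these lineages contributed to the Prf1 signal was not tested.

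Of 11 transcription factors of cytotoxic lymphocytes with a probe, 4 (36.4%, against 46.3% of all genes) did not exceed 32 on any array. On 1 to 5 arrays 7 exceeded it, and 0 did on all. Of those 7, Zeb2 exceeded 32 on 4 arrays, up to 112.3, Id2 on 3, up to 174.9, and the other 5 on 1 each. Tbx21, which encodes T-bet and activates perforin in these cells, read at most 1.3, and Runx3 at most 4.6. Eomes exceeded 32 on WT replicate 3 alone, at 55.4. Stat4 and Prdm1, with the smallest p-values, each exceeded 32 on 1 array, at 185.4 in WT replicate 3 and 67.2 in WT replicate 2. Of 7 tested, 3 had a higher and 4 a lower mean with Klf4 deficient (median -0.12 log2, 0 called).

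Perforin belongs to a family of pore-forming proteins with a shared membrane attack domain. Of its 11 other members measured, 7 (63.6%, against 46.3% of all genes) did not exceed 32 on any array and 0 exceeded it on all. Mpeg1, perforin-2 of macrophages, read 105, 206.3 and -4.5 in the WT arrays and 63.5, 8.7 and 255.2 in the Klf4-deficient ones. C9, the complement component that forms the membrane attack pore, and Astn1 each exceeded 32 on 1 array, at 209.8 in Klf4-deficient replicate 3 and 312.3 in WT replicate 3. The summed intensity of the 11 genes was 152.9, 250.5 and 369.2 in the WT arrays and 117.5, 136.5 and 544.4 in the Klf4-deficient ones. It was lowest on Klf4-deficient replicate 1, where Prf1 was also lowest. Its highest value was on Klf4-deficient replicate 3, while Prf1 peaked on WT replicate 1. With Prf1, 5 were tested, of which 2 had a higher and 3 a lower mean with Klf4 deficient (median -0.14 log2, 0 called).

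Of 24 plasmacytoid dendritic cell genes other than Siglech with a probe, 15 (62.5%, against 46.3% of all genes) did not exceed 32 on any array, 9 exceeded it on some, and 0 on all 6. Of those 9, Zbtb46 exceeded 32 on 5 arrays (42 to 434.7), Pld4 on 3 (47.4 to 139.7), and the other 7 on 1 each. Bst2, a surface antigen of these cells, stayed below 0 on every array, between -22.6 and -3.6. Tcf4, the transcription factor that specifies the lineage, read 2.5, 12.3 and 8.3 in the WT arrays and 164.3, -1.5 and 1 in the Klf4-deficient ones, with its other two probes below 0. Irf7 and Irf8, interferon regulatory factors, read at most 28.4 and 18.2, and Spib at most 4.8. Ccr9, Tlr7 and Tlr9 were below 32 throughout.

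Pld4 and Bcl11a had the smallest p-values of this list, at -0.87 ± 0.58 and -1.35 ± 1.19 (log2, SE, both adjusted p = 0.72). Bcl11a exceeded 32 on its brightest probe in WT replicate 3 alone, at 534.7. The summed intensity of the 24 genes was 421.8, 414.6 and 1089.6 in the WT arrays and 676.3, 333.2 and 160.7 in the Klf4-deficient ones. The bright Siglech probe was highest on WT replicate 1 and lowest on Klf4-deficient replicate 1. Single genes made up much of these sums. Zbtb46 read 255.8 on WT replicate 1 and 434.7 on Klf4-deficient replicate 1, where Tcf4 added 164.3, and Bcl11a read 534.7 on WT replicate 3. The order of the sums without these genes was not examined. Without WT replicate 3, 1 of the 24 genes exceeded 32 on all remaining arrays, Zbtb46, which is better known from conventional dendritic cells. Of 10 tested members, Siglech included, 3 had a higher mean with Klf4 deficient and 7 a lower one, the median difference was -0.38 against -0.07 over all tested features, and 0 were called. The part of such cells in the Siglech signal was not tested.

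**Figure D4:**
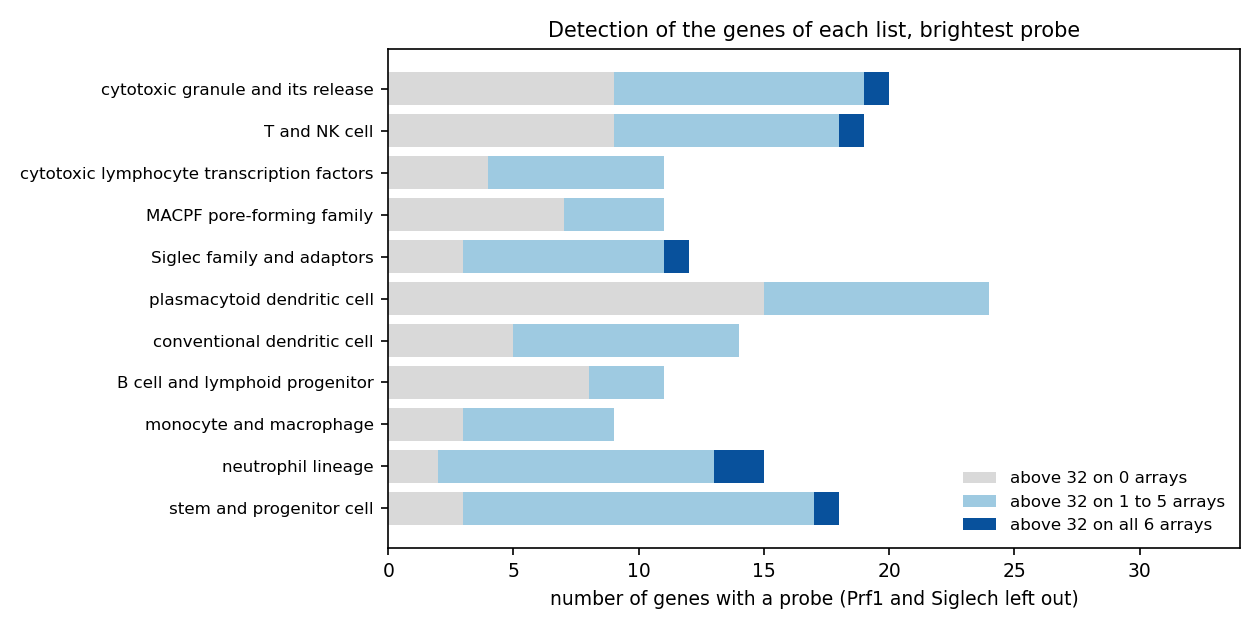
Number of genes of each list whose brightest probe exceeded 32 on 0, on 1 to 5 or on all 6 arrays, with Prf1 and Siglech left out. Of 24 plasmacytoid dendritic cell genes 15 exceeded 32 on 0 arrays, and of 20 granule genes 9.

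Within the Siglec family, Siglece was the other member above 32 on all arrays. It encodes an inhibitory receptor of neutrophils and monocytes. It read 344.9, 1756.1 and 948.2 in the WT arrays and 1010.1, 849.2 and 521.8 in the Klf4-deficient ones, lowest on WT replicate 1, where Siglech was highest. The other two Siglece probes stayed at or below 13.1 on every array, so that the brightness again came from 1 of 3 probes. Its difference was -0.12 ± 0.67 (log2, SE, adjusted p = 0.93). Siglec1, Siglecf and Siglecg did not exceed 32 on any array, Cd22 and Mag did on 1 each, and Cd33 on 3.

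Tyrobp, the adaptor through which Siglec-H signals, read 80.1, 130.2 and -3.4 in the WT arrays and 208.6, 176 and 277.3 in the Klf4-deficient ones. It was higher on every Klf4-deficient array than on any WT array, but the difference of 1.64 ± 0.57 (log2, SE) did not pass the test (limma unadjusted p = 0.032, adjusted p = 0.72). Syk, the kinase recruited by that adaptor, exceeded 32 on 2 WT arrays and on 0 Klf4-deficient arrays (-0.52 ± 0.28, adjusted p = 0.72). Of the 12 family and adaptor genes other than Siglech, 3 (25%, against 46.3% of all genes) did not exceed 32 on any array. The summed intensity of the 12 was lowest on WT replicate 1, at 599. Without Siglece the sum of the other 11 was again lowest there, at 254.1, with 313.1 to 851.5 on the others. With Siglech, 10 were tested, of which 3 had a higher and 7 a lower mean with Klf4 deficient (median -0.19 log2, 0 called).

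The labelled phenotype implies stem and progenitor genes. Of 18 with a probe, 3 (16.7%, against 46.3% of all genes) did not exceed 32 on any array, namely Slamf1, Tek and Erg. On all 6 arrays 1 gene (5.56%, against 3.86%) exceeded it. Of the 14 in between, 7 exceeded it on 1 array only, as did 4487 of all 19057 genes. Among those 7 were Meis1 and Runx1, which had the smallest p-values of the list. They differed by 0.57 ± 0.52 and -0.405 ± 0.391 (log2, SE, both limma adjusted p = 0.72). Kit, which encodes c-Kit, exceeded 32 on 1 WT and 2 Klf4-deficient arrays on its brightest probe. Its probe ILMN_1246876 did so on WT replicate 2 (258.5) and Klf4-deficient replicate 1 (67.6), and ILMN_1250169 on WT replicate 3 alone (35.4). Ly6a, which encodes Sca-1, was listed but had no named probe. Cd34 exceeded 32 on 1 array, and the progenitor factor Lmo2 on all 6, from 299.6 to 717.8. Gata2, a stem cell transcription factor, read 698.9, 534.7 and -1.9 in the WT arrays and 601.6, 415.3 and 346.2 in the Klf4-deficient ones. Flt3, a receptor of early progenitors, exceeded 32 on the same 5 arrays, from 42.2 to 864.1, and Fli1 on 4. Without WT replicate 3, 3 genes of the list exceeded 32 on all arrays, namely Lmo2, Gata2 and Flt3. Among 15 neutrophil lineage genes, Mpo, the myeloperoxidase of granulocyte and monocyte progenitors, read 1422.1 to 7153.2 on its brightest probe, was highest on WT replicate 3, and exceeded 32 on at least 5 arrays on each of its 4 probes. Ms4a3 was the other above 32 on all 6. It read 455.2, 270.1 and 236.7 in the WT arrays and 87.5, 33.8 and 69 in the Klf4-deficient ones, without overlap. Its difference of -2.385 ± 0.469 (log2, SE) missed the threshold (limma adjusted p = 0.72). Its second probe went the other way, at 1.18 ± 1.00 in a limma fit of all probes. Without WT replicate 3, 4 genes of the neutrophil list exceeded 32 on all arrays.

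Of 14 conventional dendritic cell genes 5 (35.7%) stayed at or below 32 on all arrays. So did 8 of 11 B cell and lymphoid progenitor genes (72.7%) and 3 of 9 monocyte and macrophage genes (33.3%), against 46.3% of all genes. In none of these 3 lists did a gene exceed 32 on all 6 arrays, and without WT replicate 3 the conventional dendritic cell list had 2 such genes. H2-Ab1, a class II gene, had the 3 lowest readings of its brightest probe on the Klf4-deficient arrays. Its difference of -3.38 ± 0.91 (log2, SE) missed the threshold (adjusted p = 0.72). Its probe ILMN_2913716 did not overlap only by 50.3 on WT replicate 1 against 50.1 on Klf4-deficient replicate 2, both close to background. Its difference was -1.10 ± 0.59 in a limma fit of all probes. The H2-Ab1 probe ILMN_2631423 did overlap, with 10.8 on WT replicate 1. Over all tested features, the groups did not overlap for 3.41%. The other genes with the smallest p-values of these lists were Cd209a, Vpreb1, Ebf1, Ctss and Lyz2. They differed by -0.49 ± 0.46, 0.19 ± 0.24, 0.15 ± 0.67, 1.11 ± 0.51 and -1.04 ± 0.78 (log2, SE, limma adjusted p of 0.72 to 0.92). Cd209a and Vpreb1 exceeded 32 on 1 array each. Of the tested genes of these lists, 1 of 9, 2 of 3 and 2 of 6 had a higher mean with Klf4 deficient, in that order. A higher mean was also seen for 6 of 13 neutrophil and 6 of 15 stem and progenitor genes. In all of these lists 0 were called. The summed intensities of the first 3 lists did not peak on WT replicate 1. Conventional dendritic cell genes were highest on WT replicate 2 (2076.8), and B cell genes (485.1) and monocyte genes (630.1) on WT replicate 3. Single genes made up much of these peaks. Flt3 read 864.1 on WT replicate 2, and Il7r read 350.4 and Csf1r 274.3 on WT replicate 3. The order of these sums without such genes was not examined, so the peaks may rest on them.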

How the data were processed

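RNA of 6 samples, 3 WT and 3 Klf4-deficient, grouped by their titles, was read on one-colour Illumina arrays. The deposited values are linear intensities, 1 per probe and array, ranging from -31 to 37007.2; a share of 45.3% to 45.6% per array was 0 or negative. Per the labels' protocols a service laboratory prepared and scanned the arrays. The submitters' processing notes name BeadStudio, while its version and the background and normalization methods are not given in the sources used. Sorted by size, the 6 arrays held almost equal values (a spread of at most 5% or 0.15 at 95.5% of ranks), so the arrays share 1 distribution and differences in total RNA are not visible. Values below 32 were set to 32 and log2 was taken. Fold changes against such values understate the difference, and a group with all 3 values set to 32 adds no spread to the SE.

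Names came from the platform annotation, its symbols brought up to date by Entrez number with RefSeq's gene list (34885 of 45281 probes had 1 symbol). Each gene was represented by its brightest probe, and the 13773 of 29453 features above 32 on at least 1 array were fitted with limma 3.58.1 in R 4.3.3, Benjamini-Hochberg adjusted, without a replicate block. The fit was tested on simulated data, with noise set by the spread of the Klf4-deficient arrays alone and changes planted only in brighter features. That test mimics neither WT replicate 3 nor genes near background. The members and gene lists were chosen with earlier results of these data known. Genes named are all member probes, per list up to 4 genes above 32 on all arrays and the 2 with the smallest p, markers fixed by name, and per member the 5 named genes with the nearest profile (root mean square difference of mean-centred log2 values). Other list genes named were chosen after their values were seen. Gzma had no named probe. The number of arrays limits the precision. Alternatives changed the floor, offset, probe choice, filter, scaling, variance model, replicate block and samples.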

Additional observations from a re-analysis of the deposited data

How the results depend on the processing

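Over 14 alternatives, 0 calls arose for Prf1 (adjusted p from 0.76 to 0.95) or Siglech (0.72 to 1.00). With 1 array left out, the Prf1 difference lay between -0.49 and 0.29 (log2) and that of Siglech between -0.31 and 0.51. Both turned positive without WT replicate 1 (0.286 and 0.506) and without Klf4-deficient replicate 1 (0.258 and 0.391). In the other 8 alternatives Prf1 lay between -0.18 and -0.09 and Siglech between -0.35 and -0.004. The Siglech value of -0.349 came from averaging all probes of a gene, which brings in the probe that was high on WT replicate 3. The number of features called was 0 in limma under every alternative except the mean of all probes and the absence of a filter, each with 1. A floor of 64 in place of 32 left 0 T and NK cell genes and 1 neutrophil gene above it on all arrays. The replicate block kept both differences, -0.184 and -0.004, with adjusted p of 0.92 and 1.00 and 0 features called. Samples of the same number shared little beyond it, with deviations from their group means correlated at 0.037, 0.048 and 0.047 across features. The alternatives on the profile distance, on the gene list counts and sums and on the 1000 threshold were chosen after seeing the data. Signals near 32 limit what can be said of most list genes, and 3 arrays per group limit the rest.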
